A study of Mus musculus with 4 samples.

Results

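Marrow mesenchymal stem cells (MSC) were compared with osteoblasts of the skull over 11172 of the 19938 genes measured, on 3 of the 4 arrays of the series. The genes were those whose level in the highest of the 3 arrays lay above a floor, set at the median level of that array's probe sets with 1 gene symbol. For every gene the mean of both MSC arrays was set against the osteoblast array, and the genes were then divided by whether both MSC arrays or 1 of them differed from osteoblasts by 2-fold or more. An array counted as different only where the higher level of that MSC array and osteoblasts also lay above its own array's floor, so a gene can pass 2-fold in size and still not be counted. Levels are on a log2 scale, on which a difference of 1 is 2-fold, and all differences below are MSC minus osteoblasts unless stated.

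All cells were from C57BL/6 mice, and no transgene, knockout or sorting step was described. The osteoblasts came from calvariae, the flat bones of the skull vault, of newborn mice; bone pieces were digested with trypsin and collagenases, and cells of the later digestions were pooled and grown to confluence in DMEM with fetal calf serum. The MSC were nucleated cells flushed from femurs and tibiae that stuck to plastic, grown in Coon's modified F12 medium with fetal calf serum, in 1 group with no growth factor added and in the other with bFGF (FGF2, the basic fibroblast growth factor, a mitogen) at 1 ng/ml. Neither the age of the marrow donors nor the number of passages is given in the sources used here. Bone of origin, age, isolation and medium all differed between MSC and osteoblasts and cannot be told apart. Each group had 1 array, so no difference has a replicate check, no test between groups was possible, and both MSC comparisons share the same osteoblast array. The fourth array, of embryonic stem cells, is given as a level beside the others, and in a few counts against osteoblasts.

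Osteoblasts build bone by secreting collagen type I and the proteins that order and mineralise it. MSC of the marrow are fibroblast-like cells that can be steered in culture towards bone, cartilage or fat, and in the marrow they feed blood stem cells with factors such as Kit ligand. Both are grown from tissues rich in blood cells, and macrophages, which also stick to plastic, are a known companion of both kinds of culture. In RNA from a whole culture, fewer cells of a type and less RNA of a gene per cell cannot be told apart.

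In both MSC arrays 619 genes, 5.54% of those tested, were 2-fold or more higher than in osteoblasts, and 920 genes, 8.23%, were lower. A further 183 genes (1.64%) were higher in MSC with bFGF alone and 277 (2.48%) in MSC without bFGF alone. Lower in 1 array alone were 129 genes (1.15%) with bFGF and 526 (4.71%) without. Another 8 genes (0.0716%) were higher in one MSC array and lower in the other, and 8510 genes did not pass 2-fold. Large differences were more often negative, since 401 of the genes lower in both MSC arrays lay at 4-fold or more on the mean, against 102 of the genes higher in both. At 16-fold the counts were 40 and 13. The median difference over all genes tested was 0.08, and the 1194 genes for olfactory or vomeronasal receptors, which serve smell, lay between -0.72 and 0.72 in their central 95%. Of these receptor genes 14 lay above the floor, and 3 passed 2-fold in at least 1 MSC array. Their range thus describes background levels more than the genes tested. Just inside the 2-fold limit, 131 higher and 111 lower genes had the smaller of their 2 differences within 0.1 of it, and 176 and 125 genes lay within 0.1 outside it.

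**Figure D1:**
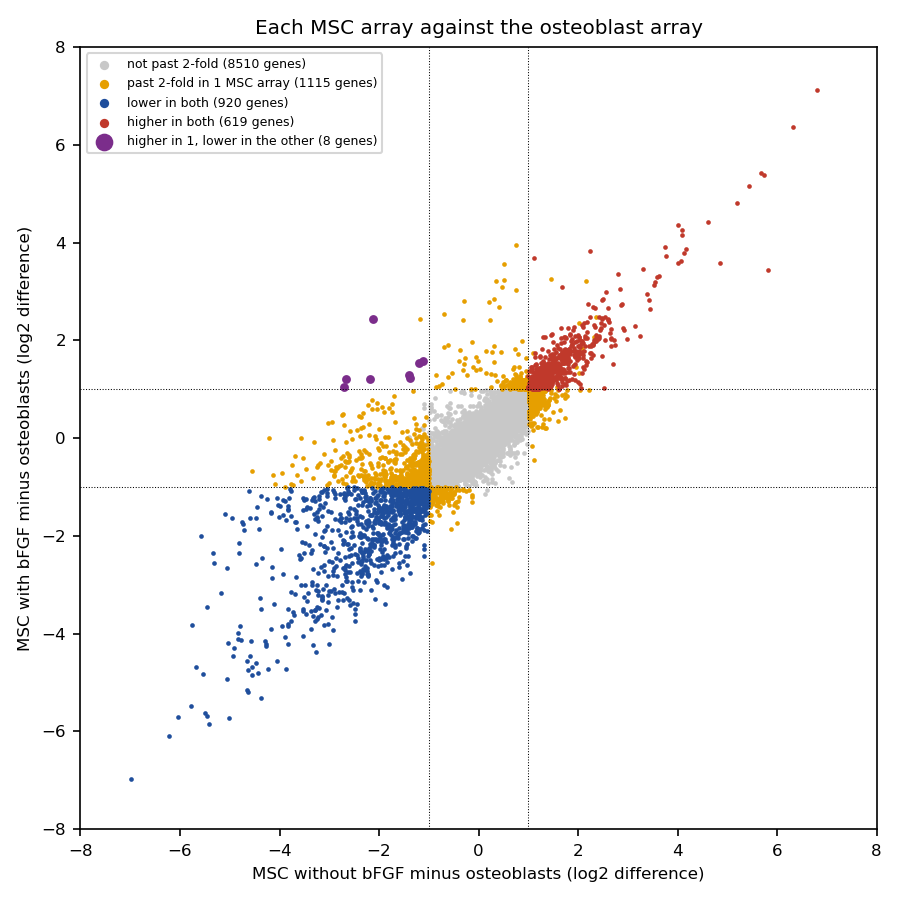
Each point is 1 gene above the floor, with its log2 difference from the osteoblast array in MSC without bFGF (horizontal axis) and in MSC with bFGF (vertical axis); dotted lines mark 2-fold. The 619 genes higher in both arrays and the 920 lower in both lie along the diagonal, and of the 4 sets past 2-fold in 1 array alone the one lower in MSC without bFGF, 526 genes, has the most points.

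The 15 largest differences higher in MSC were led by Kcnma1, Car6 and P2rx3. Kcnma1, the pore of the large-conductance calcium-activated potassium channel, was at 6.05 in osteoblasts, 12.85 in MSC without bFGF and 13.18 with it, a mean difference of 125-fold. Car6, a secreted carbonic anhydrase best known from saliva, was at 5.40, 11.13 and 10.78 in the same order. P2rx3, an ATP-gated channel of sensory neurons, was at 4.92, 10.58 and 10.33. For these 3 genes both MSC arrays were high and close together, and the osteoblast array lay under its floor of 6.46, so the sizes of the differences depend on background. Il33, an alarmin cytokine released by damaged stromal cells, was at 5.46 in osteoblasts, 11.28 without bFGF and 8.91 with it, so that the MSC arrays themselves lay apart. Nxf3, related to messenger RNA export factors, was at 3.13, 8.57 and 8.29, and the X-linked cancer-testis antigen gene Magea3 was at 3.09, 7.17 and 7.36. Ostn, a secreted peptide that binds the natriuretic peptide clearance receptor, was at 5.51, 9.52 and 9.09. Npr3, which encodes that receptor, was in contrast at 9.48 in osteoblasts and 6.26 in each MSC array. Nrcam, a neural cell adhesion molecule, was at 4.72, 8.46 and 8.62. Dthd1, Try5, Ppef1, Mamdc2, Gsto2, Plac8 and Steap1 completed the 15 largest differences, with means from 3.84 (Steap1) to 4.52 (Dthd1); near-identical trypsin genes make the value of Try5 uncertain. In all, the osteoblast array lay under the floor for 217 of the 619 genes higher in both MSC arrays, and for 480 of them the embryonic stem cell level was less than 2-fold above that of osteoblasts.

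The 15 largest differences lower in MSC were led by Fcrls, Acta2 and Igfbp2. Fcrls, an Fc receptor-like gene of resident macrophages, was at 11.85 in osteoblasts, 4.86 without bFGF and 4.87 with it, 126-fold lower on the mean. Acta2, the smooth muscle actin, was at 12.68, 6.46 and 6.58, and Igfbp2, which binds insulin-like growth factors, at 11.80, 5.76 and 6.08. Cemip, which takes part in the breakdown of hyaluronan, was at 10.99, 5.48 and 5.36. In each of these the MSC arrays lay together and far below osteoblasts. Hpgd, which inactivates prostaglandins, was at 10.21, 5.56 and 5.07, and the membrane protein gene Itm2a was at 9.99, 5.61 and 4.67. Ndn, an imprinted gene that restrains growth, was at 10.25, 4.71 and 5.42. Both MSC arrays lay under their floors, 6.29 without and 6.32 with bFGF, for 414 of the 920 genes lower in both. For 524 of the 920 the embryonic stem cell array was also 2-fold or more below osteoblasts. That array was not low for all stromal and macrophage genes. It had Acta2 at 11.91, Col1a1 at 10.92 and Adgre1 at 9.05, against 3.82 for Aspn and 5.99 for Fcrls.

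**Figure D2:**
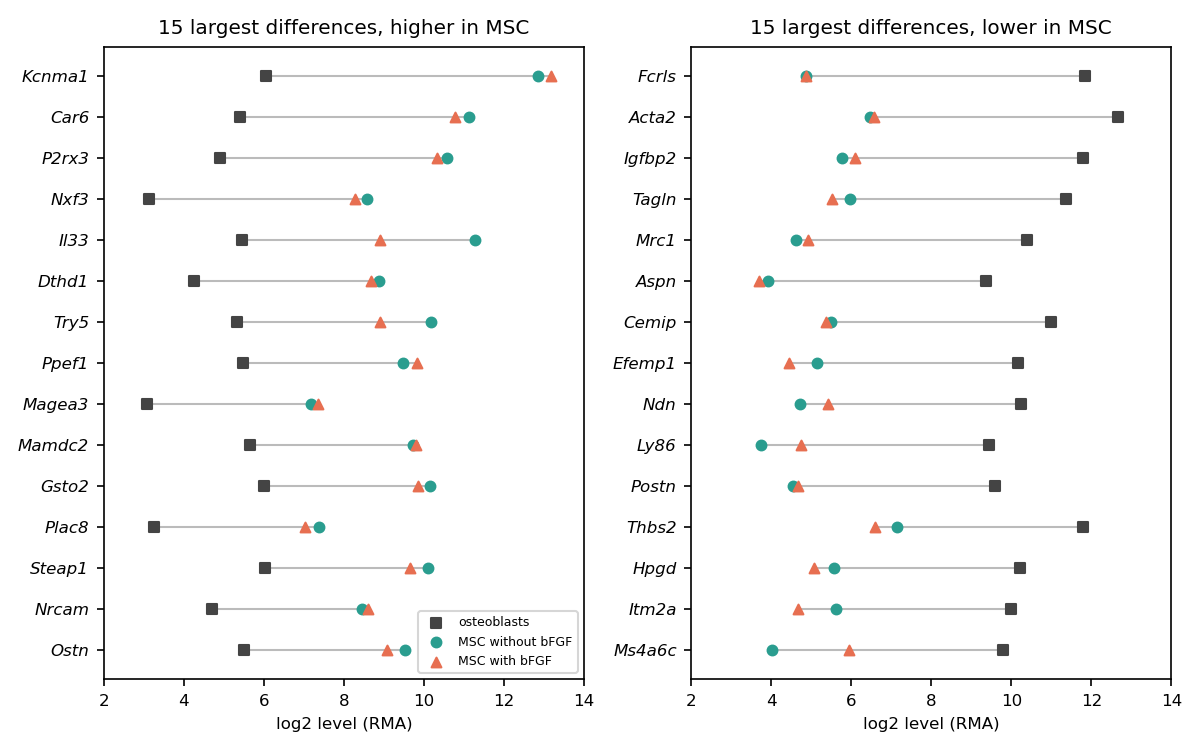
Log2 levels of the 15 genes with the largest mean difference each way among genes past 2-fold in both MSC arrays; squares are osteoblasts, circles MSC without bFGF and triangles MSC with bFGF. Both MSC arrays lie close together for most genes, from Kcnma1 (6.05 against 12.85 and 13.18) to Fcrls (11.85 against 4.86 and 4.87), with Il33 and Ms4a6c among the wider pairs.

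Genes of osteoblast differentiation were few above the floor, in osteoblasts as in MSC. Of 18 measured genes of osteoblast differentiation 7 lay above the floor, and the median difference of the list was -0.13. Alpl, the alkaline phosphatase of mineralising cells, was at 6.03 in osteoblasts, 6.32 without bFGF and 5.58 with it. The osteoblast transcription factor Sp7 was at 5.36, 5.26 and 5.36, and Ibsp, Dmp1, Phex, Mepe and Ifitm5 were under the floor in all 3 arrays. The cells labelled osteoblasts thus had no signal above the floor for Alpl and these late markers, while their matrix genes, described below, were high. A set of 3 genes of the list was lower in both MSC arrays, namely the osteoblast cadherin Cdh11 (11.70 in osteoblasts, 8.18 without and 7.64 with bFGF), the decoy receptor Tnfrsf11b (8.07, 5.76 and 5.63) and the homeobox gene Dlx5 (7.49, 6.09 and 5.80). None of the list was higher in both. Of the cartilage list 7 of 18 genes lay above the floor, 2 of them lower in both, and the cartilage factor Sox9 was at 7.99, 8.83 and 8.10. Of 19 fat cell genes 11 lay above the floor and 4 were lower in both, among them the fatty acid transporter Cd36 (8.29, 3.91 and 4.79) and the lipase Lpl (8.75, 5.17 and 6.30), both of which macrophages also make. The fat regulator Pparg was at 6.22, 5.26 and 5.32, under the floor in all 3.

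Genes by which stromal cells are recognised and by which they support blood formation differed in both directions, more of them lower in MSC than higher. Of 24 measured genes 23 lay above the floor, 2 were higher in both MSC arrays and 9 lower in both, with a median of -0.71. The shares over all genes tested were 5.54% higher and 8.23% lower in both. Kitl, the ligand that keeps blood stem cells alive, was at 6.17 in osteoblasts, 8.73 without bFGF and 9.15 with it. Grem1, a secreted inhibitor of bone morphogenetic proteins, was at 8.78, 10.87 and 10.11. These 2 were the genes of the list that both MSC arrays held 2-fold or more above osteoblasts. On the other side Il7, a lymphocyte growth factor, was at 6.99, 3.21 and 3.25, the surface protein Thy1 at 8.86, 6.04 and 5.54, and the pericyte receptor Pdgfrb at 10.22, 7.74 and 6.62. Endoglin (Eng), a common MSC marker, was at 9.26, 5.92 and 6.98. Cxcl12, the chemokine that holds blood stem cells in the marrow, was at 6.60, 5.81 and 5.75, and the leptin receptor Lepr, a marker of marrow stroma, was under the floor in all 3 arrays. Pdgfra was nearly level at 7.75, 7.85 and 7.63, and Csf1, the macrophage growth factor, was at 10.12, 10.75 and 11.14. Nes was the clearest case of 1 MSC array differing, at 6.94 in osteoblasts, 5.26 without bFGF and 7.26 with it.

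The summed level of macrophage transcripts was highest in the osteoblast array, lower in MSC with bFGF and lowest in MSC without it. Of 25 measured monocyte and macrophage genes, all above the floor in osteoblasts, 14 were lower in both MSC arrays and the other 11 in MSC without bFGF alone, with a median of -2.44. Above the floor were 21 of the 25 in MSC with bFGF and 14 in MSC without. The summed linear level of the list was 53107 in osteoblasts, 22711 with bFGF and 3560 without, and 6433 in embryonic stem cells. The macrophage surface protein Adgre1 was at 11.16 in osteoblasts, 5.69 in MSC without bFGF and 7.71 with it. Csf1r, the receptor by which macrophages survive, was at 11.27, 7.31 and 10.56, and the integrin Itgam (CD11b) at 10.70, 6.61 and 9.77. Without bFGF the myeloid master factor Spi1 was at 5.52, under the floor, against 8.99 in osteoblasts and 7.75 with bFGF. Ptprc (CD45) was also under the floor in MSC without bFGF, at 6.08. Coro1a and Cd53 were level between MSC with bFGF and osteoblasts (10.17 against 10.25 and 11.10 against 11.07).

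The list of macrophages settled in tissue stood in the same order of arrays. Of 24 measured genes 15 lay above the floor in osteoblasts, 10 in MSC with bFGF and 5 without; all 15 were lower in both MSC arrays, and the median of the 24 was -2.43. Over the 15 the median was -3.00 with bFGF and -4.48 without. The summed level was 26910 in osteoblasts, 3577 with bFGF and 1384 without. The mannose receptor Mrc1 was at 10.40 in osteoblasts and 4.63 and 4.92 in MSC without and with bFGF, the scavenger receptor Stab1 at 10.72, 5.80 and 6.43, and the fractalkine receptor Cx3cr1 at 10.45, 5.63 and 6.34. These stood under or near the floor in both MSC arrays, whereas the complement genes C1qa (11.72, 7.25 and 10.09), C1qb (11.25, 5.92 and 8.89) and C1qc (11.77, 6.46 and 9.22) were well above it in MSC with bFGF. Apoe, a lipid carrier that macrophages and other cells make, was at 12.31, 7.85 and 7.71. The 9 genes under the floor everywhere included Cd163, Lyve1, Timd4 and Vsig4. Leaving out all genes of the macrophage and osteoclast lists gave 889 genes lower and 619 higher in both MSC arrays. These counts follow from removing the members themselves, and they do not measure macrophage RNA in other genes. The part of macrophage RNA in the matrix, cytokine, interferon and lysosome results below was not tested.

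**Figure D3:**
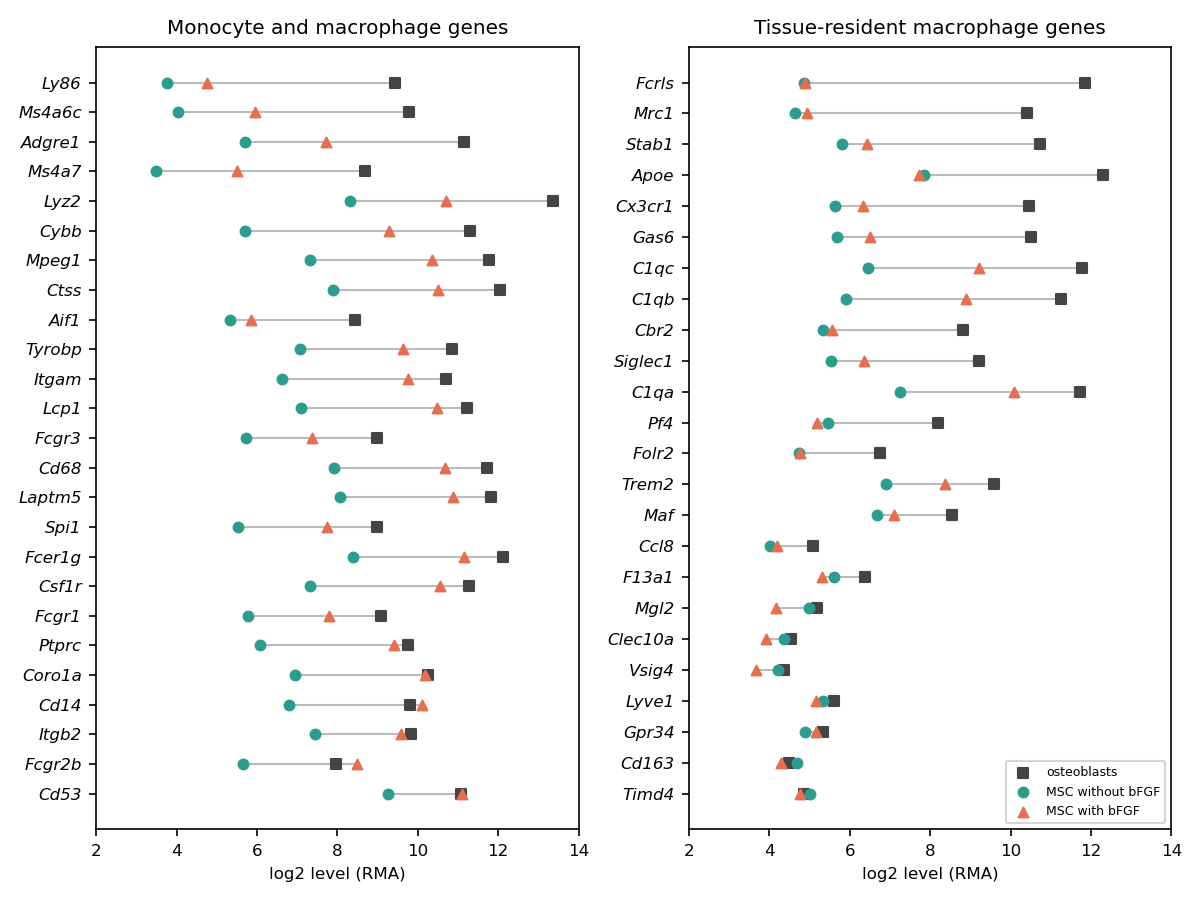
Log2 levels of the genes of both macrophage lists, ordered by the mean difference; squares are osteoblasts, circles MSC without bFGF and triangles MSC with bFGF. In the left panel triangles lie between squares and circles for most genes (Csf1r at 11.27, 10.56 and 7.31), and in the right panel both MSC symbols lie together for genes such as Mrc1 (4.92 and 4.63).

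The binding motif of the macrophage factor encoded by Spi1, searched as GAGGAAGT on both strands, was present in 3.20% of all RefSeq promoter windows of 300 bases. It was present in 2 of the 24 windows of the monocyte and macrophage genes and in 3 of the 22 windows of the resident macrophage genes. The genes with a match were Ctss, Cd53, Pf4, C1qc and F13a1. The window holds the bases around the start of the gene, so these counts describe only those letters.

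Markers of further cell types were sparse. Above the floor in at least 1 array were 1 of 14 lymphocyte genes, 0 of 17 neutrophil and mast cell genes, 3 of 8 erythroid and megakaryocyte genes and 5 of 16 endothelial genes. The corresponding counts were 5 of 15 for skeletal muscle, 4 of 12 for neural and Schwann cells and 2 of 15 for epithelium. The endothelial genes Pecam1, Cdh5, Kdr and Tek were under the floor in all 3 arrays, as were the lymphocyte genes Cd3e and Cd79a. Of osteoclasts, the bone-resorbing relatives of macrophages, 8 of 15 genes lay above the floor. Their protease Ctsk was at 9.33 in osteoblasts, 5.27 without bFGF and 4.76 with it. Dcstamp, a fusion protein of these cells, was past 2-fold in MSC with bFGF alone, at 4.60, 4.83 and 7.01, and Acp5, Calcr, Mmp9 and Oscar were under the floor throughout.

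Most collagen chains were lower in MSC. Of 29 measured chains 26 lay above the floor, 16 were lower in both MSC arrays, 1 in MSC with bFGF alone and 0 higher, with a median of -1.17. Col1a1, the main chain of bone collagen, was at 12.60 in osteoblasts, 9.23 without bFGF and 9.06 with it, 10.9-fold lower on the mean. Its partner chain Col1a2 differed far less, at 12.98, 12.16 and 11.66. The fibril-associated Col12a1 was at 10.10, 5.54 and 5.41, Col3a1 at 11.06, 8.05 and 6.85, and the basement membrane chain Col4a2 at 9.96, 6.99 and 6.83. Col5a3, Col7a1, Col11a2, Col14a1, Col15a1 and Col16a1 were among the chains that did not pass 2-fold. Enzymes that modify and cross-link collagen were lower in part, with 9 of 23 genes lower in both MSC arrays, 0 higher in both and a median of -0.81. The lysyl oxidase Lox, which cross-links collagen and elastin, was at 11.76, 7.14 and 7.01, and the prolyl hydroxylase P4ha3 at 8.78, 5.79 and 5.65. Bmp1, the protease that trims procollagen I, was at 10.06, 7.83 and 7.35. In contrast the chaperones of collagen folding Serpinh1 (10.11, 9.49 and 9.32) and Ppib (11.60, 11.73 and 11.77) differed by less than 2-fold. Adamts14, a procollagen protease, was past 2-fold in the other direction in MSC without bFGF alone, at 7.20, 8.93 and 8.09.

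Proteoglycans, elastic fibre proteins and matricellular proteins, which bind growth factors and space collagen fibrils, were lower in part. Of 25 proteoglycan and hyaluronan genes 19 lay above the floor and 13 were lower in both MSC arrays, with a median of -1.27. Aspn (asporin) was at 9.37 in osteoblasts, 3.91 without bFGF and 3.68 with it, and fibromodulin (Fmod) at 10.25, 6.03 and 5.52. Decorin (Dcn) was at 9.99, 8.16 and 6.94, and versican (Vcan) was level at 9.22, 9.96 and 9.13. Of 15 elastic fibre genes 9 were lower in both, led by fibulin-3 (Efemp1) at 10.16, 5.15 and 4.43. Ltbp3 and Ltbp4, which hold latent TGF-beta in the matrix, had differences of 0.29 and 0.77. Of 22 matricellular genes 15 lay above the floor and 11 were lower in both. Periostin (Postn) was at 9.60, 4.56 and 4.68, Thbs2 at 11.79, 7.15 and 6.59, and Ccn2 (connective tissue growth factor) at 12.31, 8.61 and 9.11. Fibronectin (Fn1), a ubiquitous cell adhesion protein, did not share this, at 12.94, 13 and 12.46. Tgfbi was lower in MSC without bFGF alone, at 10.30, 7.07 and 9.75. None of these 3 lists had a gene higher in both MSC arrays.

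Matrix proteases and their inhibitors were more often lower in MSC than higher. Of 28 measured genes 23 lay above the floor, 12 were lower in both MSC arrays and 2 higher in both, with a median of -1.20. Over all genes tested 8.23% were lower and 5.54% higher in both. The collagenase Mmp13, made by osteoblasts and chondrocytes, was at 9.50 in osteoblasts, 5.39 without bFGF and 6.10 with it, the aggrecanase Adamts5 at 10.26, 7.12 and 7.01, and the serine protease Htra1 at 8.51, 4.74 and 5.35. Higher in both were the stromelysin-like Mmp11 (7.32, 8.96 and 8.83) and the urokinase receptor Plaur (8.74, 9.87 and 10.39). Plau, the protease that binds that receptor, was at 10.46, 7.88 and 10.59, lower in MSC without bFGF alone. The inhibitor Timp3 was at 10.47, 10.03 and 8.74, lower with bFGF alone, and Timp1 differed little at 11.31, 11.01 and 11.06.

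The contractile apparatus of smooth muscle, which fibroblasts also build when they become myofibroblasts, was lower in part. Of 23 measured genes 19 lay above the floor, 10 were lower in both MSC arrays and 0 higher, with a median of -1.04. Tagln, which binds actin, was at 11.37 in osteoblasts, 5.96 without bFGF and 5.52 with it, Cnn1 (calponin) at 8.40, 4.88 and 4.91, and the myosin light chain Myl9 at 10.16, 6.26 and 6.09. With Acta2 these 4 were the largest differences of the list. Cald1 (10.70, 10.05 and 10.11), Cnn3 (9.97, 9.42 and 9.21) and Srf (8.29, 7.31 and 7.81) did not pass 2-fold, and Smtn was at 7.33, 7.81 and 7.71. Serum response factor, encoded by Srf, binds the CArG box. The box was present on 1.63% of all promoter windows and on 4 of the 19 windows of these genes. The list holds known targets of this factor, so this share is no independent finding. Of the genes with a match, Cnn2 and Myl9 were lower in both MSC arrays, and Srf and Actc1 did not pass 2-fold. Acta2, Cnn1, Tpm1, Tpm2 and Csrp1 were lower in both with no match in their windows. The window of Myl9 is shown to place the box within it. It is from RefSeq on GRCm38.p6, chr2:156775214-156775513 (plus strand), and capitals mark the CArG box.
Myl9: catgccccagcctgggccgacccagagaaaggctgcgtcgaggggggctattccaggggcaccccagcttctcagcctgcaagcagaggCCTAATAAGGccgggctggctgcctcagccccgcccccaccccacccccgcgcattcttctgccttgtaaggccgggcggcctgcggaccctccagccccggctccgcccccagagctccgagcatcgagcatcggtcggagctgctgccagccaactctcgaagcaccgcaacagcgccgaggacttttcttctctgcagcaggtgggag
Targets of YAP and of serum response factor as a list had 1 gene higher and 5 lower in both MSC arrays of 21, with a median of -0.59. The higher gene, Ankrd1, a nuclear repeat protein of stretched muscle, was at 9.64, 11.77 and 12, while vinculin (Vcl), a focal adhesion protein, was at 10.32, 8.03 and 8.04 and the transglutaminase Tgm2 at 8.91, 6.23 and 6.26.

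Adhesion receptors were higher for some members and lower for more. Of 30 integrin, cadherin and other adhesion genes 24 lay above the floor, with 4 higher and 10 lower in both MSC arrays. The collagen receptor subunit Itga11 was at 9.02 in osteoblasts, 5.18 without bFGF and 5.22 with it, and Itga1, also a collagen receptor subunit, at 7.26, 5.35 and 4.25. Besides Nrcam the higher genes were Itgb8 (5.47, 8.17 and 6.99), which takes part in the release of active TGF-beta, the laminin receptor subunit Itga3 (7.03, 8.27 and 8.70) and Itgb7 (6.17, 7.30 and 7.91). The junction protein F11r was at 7.23, 5.19 and 7.83, lower in MSC without bFGF alone.

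**Figure D4:**
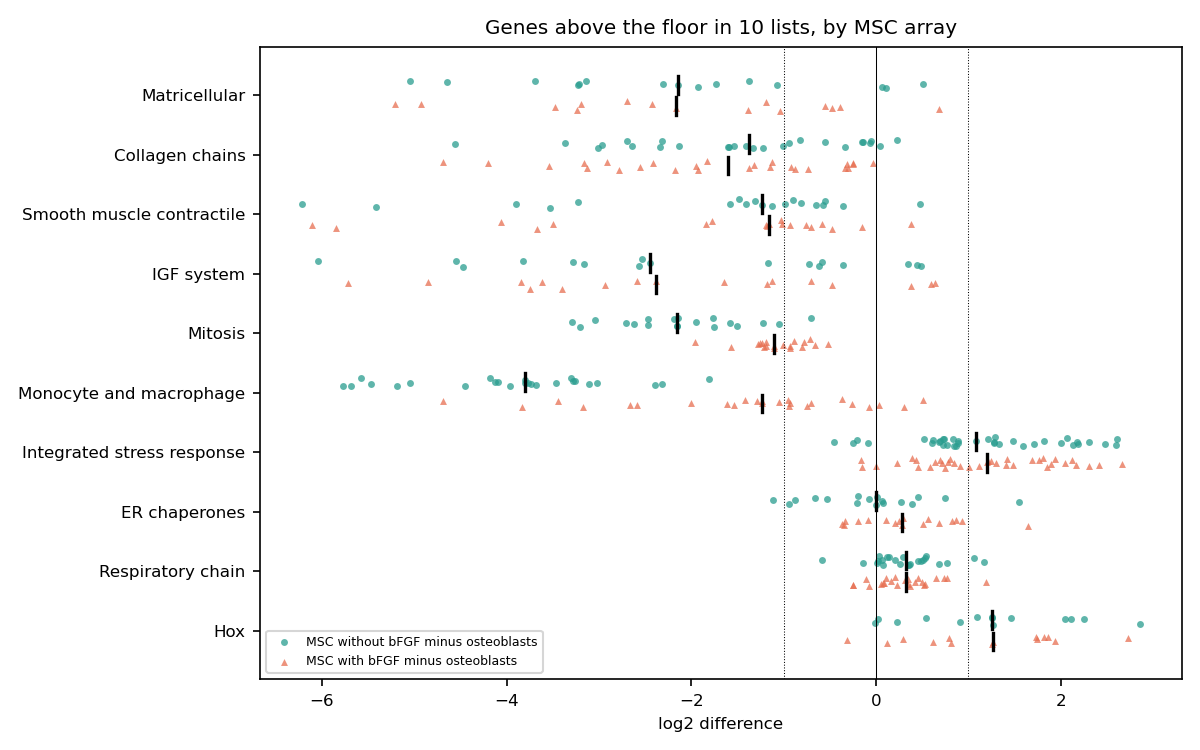
Log2 differences from osteoblasts of the genes above the floor in 10 lists; circles are MSC without bFGF, triangles MSC with bFGF, black bars the list medians and dotted lines 2-fold. Matricellular, collagen, contractile and IGF genes have like medians in both arrays, whereas the monocyte and macrophage genes (-3.80 without and -1.23 with bFGF) and the mitosis genes (-2.16 and -1.10) lie lower in MSC without bFGF.

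Genes of the integrated stress response and of amino acid supply were higher in both MSC arrays for 19 of 39 members and lower in both for 0. Under this response the transcription factor ATF4 raises amino acid transporters and the enzymes of serine, glycine and folate metabolism. Above the floor lay 37 of the 39; a further 2 were higher in MSC with bFGF alone, 16 did not pass 2-fold, and the median of the list was 0.95. Atf4 itself was at 9.22 in osteoblasts, 10.31 without bFGF and 10.22 with it. The stress factor Ddit3 (CHOP) was at 8.02, 9.73 and 9.82, and Trib3, which restrains ATF4 and CHOP, at 8.38, 10.56 and 10.54. In each of these the MSC arrays lay close together. Among transporters, Slc7a11, the cystine importer, was at 7.97, 10.58 and 10.63, the glutamine importer Slc1a5 at 8.10, 10.70 and 10.51, and the glycine importer Slc6a9 at 7.98, 9.80 and 9.74. Among enzymes, the mitochondrial serine enzyme Shmt2 was at 8.20, 10.27 and 10.51, its folate partners Mthfd2 at 9.20, 10.48 and 10.50 and Aldh1l2 at 7.62, 9.75 and 9.51, and Psat1 of serine synthesis at 10.08, 11.56 and 11.55. Sesn2, a sensor that restrains mTORC1, was at 8.71, 10.71 and 10.83, and the translation repressor Eif4ebp1 at 8.47, 10.77 and 10.40. Not all known targets did this, since the asparagine synthetase Asns was at 11.04, 10.79 and 10.89, Atf5 at 9.27, 9.17 and 9.12 and Ddit4 at 8.43, 8.22 and 8.43. Most transfer RNA synthetases lay under the list median, with 0.68 for Cars, 0.71 for Gars, 0.73 for Sars and 0.87 for Mars1. Wars lay above it, with 1.26.

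The composite element that C/EBP and ATF proteins bind, searched as TGATGNAA on both strands, was present on 3.97% of all promoter windows and on 9 of the 35 windows of the stress response genes. The list was drawn from known targets, so this share is no independent finding. The genes with a match were Trib3, Slc7a11, Vldlr, Chac1, Atf3, Asns, Slc1a4, Nupr1 and Fgf21. Of these, Trib3, Slc7a11 and the lipoprotein receptor Vldlr (7.64 in osteoblasts, 9.82 without bFGF and 9.68 with it) were higher in both MSC arrays. Chac1 (8.50, 9.19 and 9.71) and Atf3 (9.55, 10.17 and 10.66) were higher with bFGF alone, and the other 4 did not pass 2-fold. The windows of the 3 genes higher in both are shown to place the element within them. They are from RefSeq on GRCm38.p6, on the strand of the gene, with the element in capitals. Their positions are chr2:152344011-152344310 (minus strand) for Trib3, chr3:50443564-50443863 (minus strand) for Slc7a11 and chr19:27216770-27217069 (plus strand) for Vldlr. That of Slc7a11 holds 2 matches, 1 on each strand.
Trib3: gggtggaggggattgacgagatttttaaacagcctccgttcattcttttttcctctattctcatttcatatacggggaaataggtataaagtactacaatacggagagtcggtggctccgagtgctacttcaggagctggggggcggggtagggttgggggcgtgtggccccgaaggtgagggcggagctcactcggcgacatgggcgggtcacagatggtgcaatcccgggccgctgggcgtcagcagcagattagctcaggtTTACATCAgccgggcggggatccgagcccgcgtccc
Slc7a11: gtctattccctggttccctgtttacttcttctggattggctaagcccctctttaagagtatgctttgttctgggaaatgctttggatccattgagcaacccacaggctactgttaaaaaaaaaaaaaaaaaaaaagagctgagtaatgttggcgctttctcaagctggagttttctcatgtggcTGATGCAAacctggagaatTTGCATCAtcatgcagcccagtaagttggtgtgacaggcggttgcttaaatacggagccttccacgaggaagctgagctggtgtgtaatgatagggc
Vldlr: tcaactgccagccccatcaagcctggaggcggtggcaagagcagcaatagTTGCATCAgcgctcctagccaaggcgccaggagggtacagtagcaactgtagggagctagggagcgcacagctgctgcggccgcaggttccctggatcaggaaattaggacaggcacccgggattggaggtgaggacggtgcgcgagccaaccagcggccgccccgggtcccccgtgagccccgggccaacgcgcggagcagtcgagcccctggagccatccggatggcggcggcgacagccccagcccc

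Chaperones of the endoplasmic reticulum, which answer to unfolded proteins rather than to amino acids, differed little. Of 17 genes, all above the floor, 1 was higher in both MSC arrays and 0 lower, with a median of 0.14. That gene, the co-chaperone Dnajb9, was at 7.91 in osteoblasts, 9.46 without bFGF and 9.55 with it. The main chaperone Hspa5 (BiP) was at 11.94, 12.39 and 12.45, and Xbp1, a factor of the unfolded protein response, at 9.53, 9.45 and 9.78. Of 24 antioxidant and NRF2 target genes 17 did not pass 2-fold, 3 were higher and 3 lower in both, with a median of 0.20. The shares over all genes tested were 5.54% higher and 8.23% lower in both. Nqo1, a quinone reductase and classical NRF2 target, was at 8.95, 5.08 and 4.23, whereas Hmox1 was level at 11.91, 11.92 and 12.04. The autophagy receptor Sqstm1 was at 11.33, 12.54 and 12.43, and the metallothionein Mt2 at 10.55, 11.73 and 11.65.

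Energy metabolism was nearly level in the respiratory chain, and 12 of 19 tested genes of glycolysis and hypoxia did not pass 2-fold. Of 24 genes of the respiratory chain 1 was higher in both MSC arrays, the electron carrier Cycs (9.89 in osteoblasts, 10.95 without bFGF and 11.08 with it), and the median was 0.30. Among 23 measured genes of glycolysis and hypoxia 19 lay above the floor, of which 1 was higher and 2 lower in both. A further 1 was lower with bFGF alone and 3 without bFGF alone, among them Pdk1 (8.41, 6.49 and 7.70) and Pfkp (8.59, 7.14 and 8.74). Over all genes tested 23.8% passed 2-fold in any way, with 5.54% higher and 8.23% lower in both. Lower with bFGF alone were 1.15% of all genes tested, and without it alone 4.71%. On the mean 18 of the 23 lay below osteoblasts and 5 above, and their median was -0.43. The angiogenic factor Vegfa was at 8.97, 10.06 and 10.01, and Aldoc, an aldolase, at 8.26, 5.59 and 6.34. Among 23 genes of sterol and fatty acid synthesis, whose median was 0.07, 0 passed 2-fold in both arrays and 3 were lower without bFGF alone. One of these, the isoprenoid enzyme Idi1, was at 7.51, 6.25 and 7.70. Lysosomal genes were lower in part, with 5 of 25 lower in both MSC arrays and 0 higher, and a median of -0.59. The cathepsin Ctsc, which activates proteases of leukocytes, was at 11.35, 7.0 and 8.89, and Gpnmb, a glycoprotein of macrophages and bone cells, at 11.29, 9.25 and 9.18.

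Mitosis genes were lower in part, in more of them without bFGF than with it. Of 23 measured genes 19 lay above the floor, 11 were lower in both and 7 in MSC without bFGF alone, and none of the 23 was above osteoblasts on the mean, with a median of -1.53. The mitotic kinase Plk1 was at 8.61 in osteoblasts, 5.32 without bFGF and 6.65 with it, the topoisomerase Top2a at 8.98, 5.93 and 7.79, and the checkpoint kinase Bub1 at 7.26, 4.06 and 6.07. Mki67, the antigen Ki-67 of dividing cells, was at 7.95, 5.81 and 7.02. Above the floor were 19 of the genes in osteoblasts, 15 in MSC with bFGF and 4 without. DNA replication genes had 21 of 24 above the floor, of which 2 were lower in both, 5 lower without bFGF alone and 1 higher in both. Over all genes tested the shares were 8.23%, 4.71% and 5.54%, and the median of the list was -0.34. Uhrf1, which copies DNA methylation after replication, was at 8.02, 5.54 and 6.78, and the helicase subunit Mcm3 at 8.70, 6.67 and 7.86. The licensing factor Cdt1 went the other way at 8.43, 10.04 and 9.44, and Pcna was at 10.26, 9.85 and 10.45. Of 22 cell cycle inhibitors and p53 targets 5 were lower in both and 0 higher, with a median of -0.38. Perp, a p53 target of cell junctions, was at 8.79, 4.84 and 4.94, the death receptor Fas at 7.50, 5.18 and 5.69, and the locus gene Cdkn2a at 7.60, 6.34 and 6.12. Cdkn2b, an inhibitor raised by TGF-beta, was at 8.85, 10.52 and 9.72, past 2-fold without bFGF alone. The degree of confluence at harvest is stated for the osteoblasts, and its part in these values was not tested.

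Genes that record the position of a tissue along the body were divided. Hox genes are silent in the front of the head and active in trunk and limbs. Of 37 measured Hox genes 14 lay above the floor, 7 were higher in both MSC arrays, 1 in each MSC array alone and 0 lower, with a median of 0.38. Hoxd8 was at 4.79 in osteoblasts, 7.64 without bFGF and 7.51 with it, Hoxa9 at 5.25, 7.36 and 7.19, and Hoxc10 at 4.83, 7.08 and 6.56. The other 4 were Hoxc9 (5.73, 7.77 and 7.59), Hoxc13 (5.36, 6.63 and 7.19), Hoxa10 (5.23, 6.69 and 6.49) and Hoxc5 (5.19, 6.45 and 6.45). For all 7 the osteoblast array lay under the floor. Of the Hox genes 2 lay above the floor in osteoblasts, Hoxa4 (6.76, 6.98 and 7.05) and Hoxc8 (6.50, 7.40 and 7.30). Hoxc6 was counted with bFGF alone (4.66, 5.75 and 6.40), since its level without bFGF, though past 2-fold in size, was under the floor, and Hoxa7 without it alone (5.72, 6.98 and 6.52). Hoxa5, Hoxa11, Hoxc11 and Hoxd9 to Hoxd13 were among the 23 under the floor everywhere, and of the Hoxb genes above the floor Hoxb7 (5.71, 6.26 and 6.32), Hoxb9 (6.41, 6.39 and 6.52) and Hoxb1 (6.43, 6.46 and 6.12) did not pass 2-fold.

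Of 25 measured factors of the skull and cranial neural crest 20 lay above the floor. In both MSC arrays 8 were lower and 0 higher, with a median of -0.48. Zic1 was at 7.77 in osteoblasts, 5.34 without bFGF and 4.85 with it, Six2 at 8.34, 6.23 and 5.74, and Eya1 at 7.28, 5.14 and 5.17. Msx2, whose mutation disturbs the closure of skull sutures, was at 8.20, 6.12 and 6.46, and Alx4, also needed for the skull vault, at 7.32, 6.21 and 5.54. Twist1 (8.89, 9.59 and 9.20) and Snai2 (9.11, 9.39 and 9.14), factors shared by mesenchyme of many sites, stayed within 2-fold. Limb and trunk factors other than Hox had 16 of 24 measured genes above the floor, of which 3 were higher and 2 lower in both. The shares over all genes tested were 5.54% and 8.23%, and the median of the list was -0.03. The higher ones were Shox2 (5.21, 6.70 and 6.90), a limb factor, the Hox cofactor Meis2 (6.97, 8.55 and 8.26) and Emx2 (5.35, 6.88 and 6.56). Prrx2 (8.32, 6.80 and 5.80), shared by limb and face, and Irx3 (7.21, 5.83 and 5.76) were lower.

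The insulin-like growth factor system was among the lists with the most negative medians. Of 18 measured genes 17 lay above the floor and 10 were lower in both MSC arrays, 0 higher, with a median of -1.94. The ligand Igf1, made by macrophages and stromal cells alike, was at 10.19 in osteoblasts, 5.72 without bFGF and 7.60 with it, and Igf2 at 8.82, 6.25 and 6.43. The binding proteins Igfbp4 (11.24, 7.96 and 7.50), Igfbp5 (9.07, 5.25 and 5.24) and Igfbp7 (11.75, 7.21 and 6.91) were all lower. So was Pappa, which cuts Igfbp4 to free the ligand, at 9.58, 7.04 and 6.64. The receptors differed less, with Igf1r at 9.11, 8.75 and 8.63 and Insr at 8.15, 8.63 and 8.53. Imprinted genes, expressed from 1 parental copy and many of them growth regulators of the fetus, had 10 of 20 above the floor. Of these 10 genes 5 were lower in both and 0 higher, and the median of the 20 was -0.48. Mest was at 8.76, 4.48 and 4.54, the long noncoding Meg3 at 7.77, 4.90 and 5.32, and Peg3 at 7.74, 5.14 and 5.12. Grb10, imprinted as well, was level at 9.98, 9.83 and 9.59, and Sgce was past 2-fold upward without bFGF alone, at 8.98, 10.14 and 9.61.

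Of the receptors for fibroblast growth factors, Fgfr1 and Fgfr2 were lower in both MSC arrays. Fgfr1 was at 9.87 in osteoblasts, 7.76 without bFGF and 8.03 with it, and Fgfr2 at 8.45, 6.83 and 6.41. Fgfr3 was at or under the floor (6.22, 6.16 and 6.32), and Fgf2 itself was at 6.63, 6.50 and 6.04. Fgf10, a ligand that signals from mesenchyme to epithelium, was at 5.19, 8.09 and 7.44, and its relative Fgf7 at 10.53, 9.11 and 8.77. Within the whole list of 29 measured growth factors and receptors 3 were higher in both, Ostn, Fgf10 and the hepatocyte growth factor receptor Met (6.09, 7.77 and 7.86), and 8 were lower. The epidermal growth factor receptor Egfr was at 8.19, 5.83 and 5.67, the lymphatic growth factor Vegfd at 8.97, 6.04 and 5.05, and pleiotrophin (Ptn) at 7.86, 5.98 and 4.47. Pdgfb was lower without bFGF alone, at 7.69, 6.37 and 8.66.

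Of 36 measured genes of TGF-beta and bone morphogenetic protein (BMP) signalling 26 lay above the floor, 10 were lower in both MSC arrays and 0 higher, with a median of -0.67. Among ligands, Tgfb3 was at 9.88 in osteoblasts, 6.98 without bFGF and 6.79 with it, Bmp4 at 7.72, 5.82 and 5.25, and the activin subunit Inhbb at 8.36, 5.82 and 5.31. The receptor Tgfbr1 was at 9.30, 7.35 and 7.73, whereas Bmpr2 was level at 8.74, 8.72 and 8.75. Among targets, Id3 was at 9.33, 6.49 and 6.98, and Id2 at 10.40, 8.39 and 10.14, lower without bFGF alone; Smad7 was level at 8.24, 8.07 and 8.33. Of 36 Wnt pathway genes 23 lay above the floor, 1 was higher and 7 lower in both, with a median of -0.51. The ligand Wnt7b was at 6.57, 8.63 and 7.59. Rspo3, which strengthens Wnt signals, was at 8.19, 4.69 and 5.18, the secreted antagonist Dkk2 at 9.54, 6.87 and 6.69, and the receptor Fzd7 at 8.78, 7.05 and 6.36. The targets Axin2 (5.48, 6.33 and 6.22) and Lef1 (5.92, 6.98 and 6.85) had mean differences of 0.80 and 0.99. Of 16 Notch genes 9 lay above the floor, 4 of them lower in both and 0 higher. The lower ones included the ligand Jag1 (8.66, 6.97 and 6.71) and the receptor Notch3 (7.50, 5.99 and 5.70). Of 18 retinoic acid genes 11 lay above the floor, 3 of them lower and 1 higher in both, against 8.23% and 5.54% of all genes tested. The synthesising enzyme Aldh1a1 was at 8.79, 5.73 and 5.27, and Dhrs9 at 5.99, 7.31 and 8.05.

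Guidance cues, which steer axons and vessels, had 36 genes measured and 27 above the floor. In both MSC arrays 9 were lower and 1 higher, with a median of -0.62. Sema3e was at 8.66 in osteoblasts, 5.34 without bFGF and 4.42 with it, and the ephrin receptor Epha4 at 7.92, 5.42 and 5.72. Sema5a was the higher one, at 6.24, 8.55 and 7.94. Of 32 measured potassium channel genes 15 lay above the floor, of which 2 were higher in both, Kcnma1 and Kcnh2, and 6 lower. Over all genes tested 5.54% were higher and 8.23% lower in both. Kcnh2, the channel of the heart's delayed rectifier current, was at 6.16, 7.56 and 7.38, and the intermediate-conductance channel Kcnn4, found in blood cells, at 10.08, 7.81 and 7.47. Kcne4, an accessory subunit, was at 6.68, 5.30 and 3.92. Among 26 purinergic receptors and carbonic anhydrases 13 lay above the floor. The 2 higher in both were P2rx3 and Car6, and 5 were lower in both. P2rx7, the ATP receptor of macrophages, was at 7.49, 6.18 and 6.21, and P2ry6, a receptor for UDP, at 9.86, 5.85 and 8.25.

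Chemokine and cytokine genes were the list with the most genes past 2-fold in 1 MSC array or in opposite directions. Of 34 measured genes 21 lay above the floor, of which 1 was higher and 5 lower in both, 2 were higher with bFGF alone, 2 higher and 6 lower without bFGF alone, and 3 opposite. The neutrophil attractant Cxcl2 was at 8.06 in osteoblasts, 5.94 in MSC without bFGF and 10.49 with it. The monocyte attractants Ccl3 (10.63, 9.43 and 12.16) and Ccl4 (7.61, 6.48 and 9.18) stood in the same order, with osteoblasts between the MSC arrays. Lower in both were Cxcl16 (9.42, 5.44 and 7.14), Ccl7 (9.39, 5.78 and 7.01) and the interferon-induced Cxcl10 (9.36, 6.39 and 7.25). Ccl12 (8.54, 6.13 and 8.98) and Ccl9 (8.87, 6.03 and 8.26) were lower without bFGF alone. Of 22 interferon response genes 7 were lower in both, 8 without bFGF alone and 0 higher, with a median of -1.22. Ifit3 was at 8.20, 5.54 and 5.61, and Irf7, the factor that amplifies the response, at 9.20, 6.90 and 8.53. Of 16 antigen presentation genes 11 lay above the floor and 1 was lower in both, Tapbp (10.09, 7.90 and 8.78), against 8.23% of all genes tested. B2m was level at 12.98, 12.82 and 12.70. Of 14 complement genes 8 lay above the floor, 3 of them lower in both and 1 higher, against 8.23% and 5.54% of all genes tested. The anaphylatoxin receptor C3ar1 was at 11.15, 6.43 and 9.27, and the protease gene C1s1 at 5.88, 7.78 and 7.18. The summed macrophage list stood in the same order of arrays as Ccl7, Cxcl16 and Irf7, and its part in these values was not tested.

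**Figure D5:**
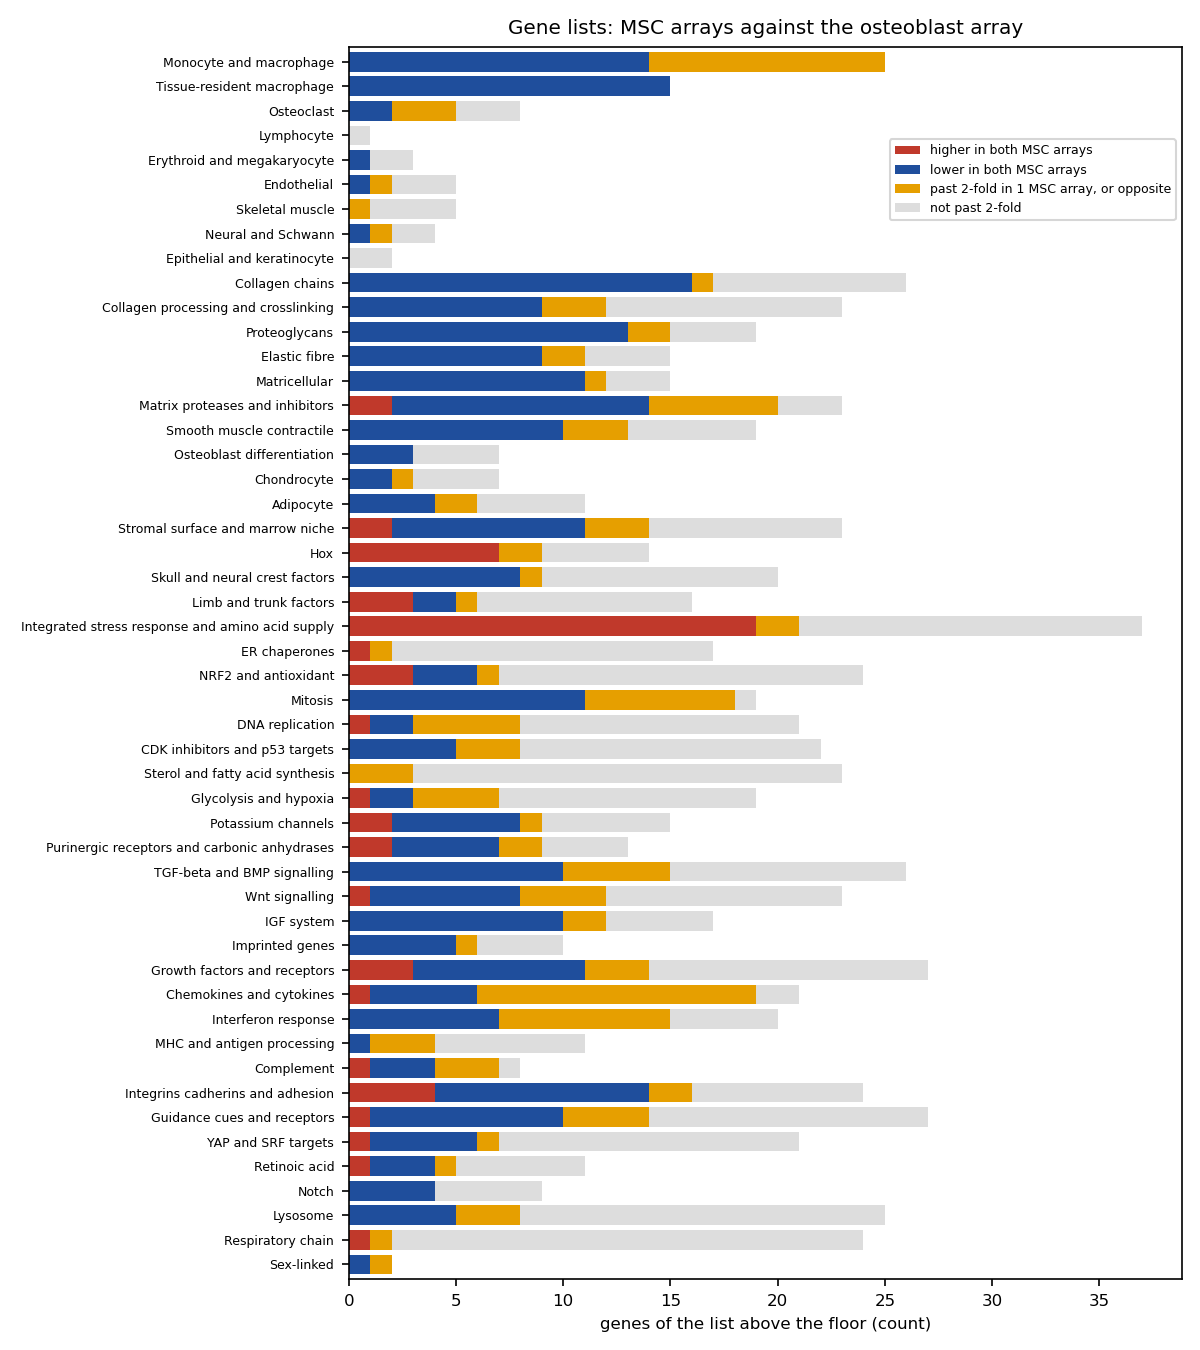
For each gene list with at least 1 gene above the floor, stacked bars count the genes higher in both MSC arrays, lower in both, past 2-fold in 1 array or in opposite directions, and not past 2-fold. The integrated stress response list holds the most genes higher in both (19 of 37), and collagen chains the most lower in both (16 of 26).

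Genes in which 1 MSC array alone passed 2-fold were mostly near the limit in the other array too. Among the 183 genes higher with bFGF alone the other array was within 0.5 of the limit or past it for 135, and among the 277 higher without bFGF alone for 249. The corresponding numbers among the lower genes were 111 of 129 with bFGF and 362 of 526 without. For 5 of the 183 and 8 of the 277 the other array passed 2-fold in the same direction but lay under its floor. A stricter set asked in addition that the MSC arrays differ from each other by 2-fold or more, which left 48 genes higher and 6 lower with bFGF alone, and 12 higher and 215 lower without bFGF alone.

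In the stricter set higher with bFGF alone the largest differences were those of the leukocyte activation marker Cd69, at 5.46 in osteoblasts, 6.20 without bFGF and 9.41 with it, Lix1 (4.03, 4.55 and 7.60) and the interferon-induced Ifi44l (3.85, 4.36 and 7.09). Serpinb10 (4.16, 4.50 and 7.37), the orphan receptor Gpr141 (3.52, 5.67 and 6.72; past 2-fold in size without bFGF too, at a level under the floor), Xirp2 (4.42, 4.90 and 7.52), the small GTPase Rab15 (5.68, 6.44 and 8.72) and the invariant chain Cd74 (5.98, 6.29 and 8.82) followed. For each of these 8 the osteoblast array lay under the floor. The 6 genes lower with bFGF alone were the sodium pump subunit Atp1b1 (8.48, 7.55 and 5.93), Acss1 (6.59, 6.03 and 4.72), Timp3, the tight junction gene Cldn5 (6.96, 6.84 and 5.65), Clmp (6.80, 6.67 and 5.58) and Arhgef4 (6.78, 6.65 and 5.61).

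Higher without bFGF alone were the complement protease C1s2 (4.88, 7.10 and 5.86), the proteoglycan Spock3 (4.66, 6.69 and 5.64), the Wnt inhibitor Apcdd1 (6.64, 8.37 and 7.04) and Zcwpw1 (5.73, 7.37 and 6.30). Tmem179, Rapgef3, Mal and Nsg2 had smaller mean differences, from 0.77 (Nsg2) to 0.97 (Tmem179). The largest differences among genes lower without bFGF alone were myeloid. Clec4e, a receptor for mycobacterial lipid, was at 9.13 in osteoblasts, 4.57 without bFGF and 8.46 with it, Lilr4b at 10.67, 6.46 and 10.68, and the leukocyte plastin Lcp1 at 11.23, 7.10 and 10.48. Nckap1l (10.09, 6.20 and 9.09), Laptm5 (11.82, 8.05 and 10.88) and Hcls1 (10.10, 6.34 and 9.54), all genes of blood cells, followed with Itgam and Csf1r. Lilr4b has close relatives that may share its probes. The choice of these genes required that MSC with bFGF lie within 1 of osteoblasts.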

How the data were processed

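The values were the authors' deposited log2 levels per probe set and array, made with Affymetrix Expression Console and RMA per the submitters' processing notes; RMA subtracts background, quantile-normalizes the arrays and sums up the probes of a set. The log2 scale was inferred from the values, and neither software versions nor a build is given in the sources used here. Of 35556 probe sets 21789 had 1 gene symbol, 1621 several and 12146 none; those with 1 symbol were named, and of several for 1 gene, the set with the largest 4-array mean stood for it, which gave 19938 genes. A gene was tested if an array of the 3 lay above its floor (6.46 in osteoblasts, 6.29 in MSC without and 6.32 with bFGF; 50th percentile), and called in an MSC array at a log2 difference of 1 from osteoblasts if the higher of that pair lay above its own floor. Between probe sets of the same gene the mean difference had an SD of 0.24. RMA would hide a general shift, and the number of arrays limits the precision.

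The gene lists (51, with 1130 of 1208 symbols measured) and the genes compared were chosen with earlier results of these data known. Named genes were the 15 largest differences each way in both MSC arrays, up to 8 each way in 1 array alone with the MSC arrays 2-fold apart, the opposite genes, up to 4 list members each way called in both MSC arrays, up to 2 each way in 1 alone, Hox, FGF receptor and other fixed genes, and list members shown for their values. Predicted genes, small RNAs and receptor gene families were left out of that naming. Promoter windows came from RefSeq (GRCm38.p6). Alternatives are given in the closing section. The calling steps were tested on simulated data. Python 3.11.15, numpy 2.4.6 and pandas 2.3.3 were used. Some genes were not analysed here.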

Additional observations from a re-analysis of the deposited data

Results flagged for a closer look

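In 8 genes the MSC arrays lay on opposite sides of osteoblasts, each by 2-fold or more with the higher level above its floor, higher with bFGF and lower without. Cd86 did so in size too, but without bFGF both its level and that of osteoblasts were under the floor. The differences between the MSC arrays, with minus without bFGF, were 4.55 for the chemokine Cxcl2, 3.87 for the adaptor Stap1, 3.74 for the interleukin 7 receptor chain Il7r and 3.40 for the myeloid receptor Pilra. They were 2.73 for Ccl3, 2.70 for Ccl4, 2.68 for Pilrb1 and 2.60 for the macrophage elastase Mmp12. With 1 array per group these differences were not tested. Stap1 was at 7.12 in osteoblasts, 4.46 without bFGF and 8.33 with it, Il7r at 7.34, 4.64 and 8.38, and Mmp12 at 8.13, 6.76 and 9.36. MSC without bFGF were under the floor for Cxcl2, Stap1, Il7r, Pilra and Pilrb1. The summed level of the monocyte and macrophage genes was 22711 with bFGF, 3560 without and 53107 in osteoblasts, and its part in these differences was not tested.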

How the results depend on the processing

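No paired analysis was possible because each group had 1 array. In the order higher in both, lower in both, higher and lower with bFGF alone, higher and lower without bFGF alone, and opposite, a floor at the 75th percentile gave 394, 549, 101, 44, 183, 273 and 3 genes, and a 4-fold threshold 78, 261, 36, 63, 46, 326 and 1. At 1.5-fold 1726 genes were higher and 1653 lower in both, 393 and 334 were higher and lower with bFGF alone, 617 higher without bFGF alone and 29 opposite; the 593 lower without bFGF alone stayed within 1.5 times. With no floor 289 genes were lower with bFGF alone and 9 were opposite. These changes follow from how many genes are tested or called. Centring on the median gave 505 higher and 1032 lower in both, and repeated quantile normalization 599 and 904, of which 558 and 861 were in the counts of the report. Of the 51 list medians 3, all near 0, changed sign under some alternative: limb and trunk factors from -0.03 to 0.03, 0.04 and 0.31, lymphocyte genes from -0.08 to 0.12, and sterol synthesis from 0.07 to -0.17 and -0.02. Leaving out members under the floor moved 20 of them. Of 300 gene differences 31 changed sign under some alternative, 17 of them in MSC with bFGF alone and 12 without. Where the mean was 2-fold or more, the sign turned in MSC with bFGF alone, to 0.0095 for Lilr4b, 0.13 for Plau and 0.21 for Xist; the cause was not tested. Where the lower side lay under the floor, as in 217 of the 619 higher and 414 of the 920 lower genes, background limits the size.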

Other observations

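Small nucleolar RNAs, which guide the modification of ribosomal RNA, were higher in both MSC arrays for 31 of 51 members; the class was chosen after its values were seen. Above the floor lay 38, and 0 were lower in both, with a median of 1.71 above the floor. In embryonic stem cells 33 of the 38 were also 2-fold or more above osteoblasts, with a median of 1.73. Ribosomal protein genes, which serve the same organelle, had 4 of 66 higher in both and a median of 0.46. Fragments as short as these depend on the RNA and labelling, which was not tested.

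Several genes outside the lists, chosen after their values were seen, were higher in both MSC arrays. Hmga2, a chromatin protein of embryonic growth, was at 7.93 in osteoblasts, 9.98 without bFGF and 9.95 with it, and Dppa2, a gene of early embryos, at 4.43, 8.20 and 8.16. The mesothelial surface protein Msln was at 5.79, 8.08 and 8.47, the iron-siderophore binding protein Lcn2 at 6.14, 8.37 and 9.96, the growth arrest gene Gadd45a at 9.42, 11.96 and 11.42, and the GDNF receptor Gfra1 at 6.70, 9.68 and 8.72.

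Of the sex-linked genes, the Y-linked Eif2s3y was at 6.81 in osteoblasts and 3.91 and 4.15 in MSC without and with bFGF, with 7.97 in embryonic stem cells. Uty (6.34, 3.61 and 4.45) and Kdm5d (5.95, 4.80 and 4.19) were under the floor. Xist, made from the inactive X chromosome, was at 7.88 in osteoblasts, 5.50 without bFGF and 8.09 with it. The sex of the mice is not given in the sources used here.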
